A study of Homo sapiens with 4 samples.

Results

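The Notch genes described here are the receptors NOTCH1, NOTCH2 and NOTCH3, the ligands JAG1, JAG2 and DLL1, the DNA-binding partner RBPSUH (now named RBPJ), the inhibitor NUMB, and the target genes HES1 and HEY1. They were chosen by gene name, with every non-control probe that carried one of these names. No measured value entered this rule, but earlier results of these data were known when the genes were chosen. This gave 10 of the 30982 gene names and 14 of the 41000 probes of the array, in 23 spots on each array. RNA was taken 72 h after transfection from FaDu and HSC3, established squamous cell carcinoma lines from hypopharynx and tongue, respectively. Each of the 4 arrays held Cy5-labelled RNA of a miR-489 or miR-504 transfectant beside Cy3-labelled RNA of a control miRNA transfectant of that line, with 1 array per condition. All 4 arrays lay on 1 slide and were read in 1 scan, and the dyes were not swapped. The labels do not say whether the control RNAs of a line came from separate cultures, so the p-values below measure only the spread between arrays, and the number of arrays limits their precision. Arrays are named by line and miRNA, and values are listed with FaDu before HSC3 and, within a line, miR-489 before miR-504.

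In Notch signalling a JAG or DLL ligand on a cell binds a NOTCH receptor on its neighbour. Proteases then cut the receptor, and its intracellular domain moves to the nucleus, where it joins the DNA-binding protein RBPJ and turns a repressed gene into an active target. HES1 and HEY1, repressors of the basic helix-loop-helix class, are among the best known of these targets, and NUMB lowers receptor activity through endocytosis. In squamous epithelium the pathway is known for driving keratinocytes towards differentiation, and NOTCH1 is a gene recurrently mutated in head and neck squamous cell carcinoma.

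The transfected miRNAs are shown because they are what differed between the arrays. Their mature sequences were taken from RefSeq (GRCh38.p14), and capitals mark the seed, bases 2 to 8, through which a miRNA mainly pairs with its targets. The labels do not state the arm of miR-504, so both arms are given, and the 3 seeds differ from each other.
hsa-miR-489-3p: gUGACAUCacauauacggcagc
hsa-miR-504-5p: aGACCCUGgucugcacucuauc
hsa-miR-504-3p: gGGAGUGCagggcaggguuuc

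The promoter of HES1 is shown because HES1 is the textbook target of RBPJ, which acts through sites in promoters. Within 250 bases before and 50 after each RefSeq transcription start, the RBPJ core motif TGGGAA was searched on both strands, and this motif overlaps no other motif searched. HES1 held 2 matches, which begin 84 and 70 bases before its start (in capitals below, chr3:194136059-194136088 of GRCh38.p14, plus strand).
HES1 promoter: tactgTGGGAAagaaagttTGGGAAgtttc
At least 1 match was found in 24% of 35116 promoters and at least 2 in 3.8%. Of the 8 listed genes with a promoter in that table, 2 (HES1 and RBPSUH) held a match. These are matches of letters only, and the arrays did not measure binding.

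Control levels are given as the background-subtracted median Cy3 intensity after the arrays were centred on a common median, and levels of different probes are not compared. Of the 14 probes, 11 (of 8 genes) had Cy3 well above background on all 4 arrays and were tested with limma. Over all 20914 probes tested, the level differed between the lines for many: 28.9% were higher in FaDu and 19.9% higher in HSC3 (limma, adjusted p under 0.05). Against that background, 1 of the 11 Notch probes was higher in FaDu, 6 were higher in HSC3 and 4 did not pass. The 6 belonged to JAG1, DLL1, HEY1 and RBPSUH, and RBPSUH was counted once for each of its probes. The median difference, FaDu minus HSC3, was −0.59 on the log2 scale over the 11 probes and 0.10 over all probes tested. By sign alone, 5 of the 11 probes were higher in FaDu and 6 higher in HSC3. The median is the value of the DLL1 probe, and RBPSUH entered it once for each of its probes. It therefore does not describe a lean of the genes as a set. The counts and the median leave out NOTCH1, whose Cy3 was well above background in FaDu and not in HSC3. In RNA from whole cultures, fewer cells expressing a gene and less RNA per cell cannot be told apart.

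**Figure D1:**
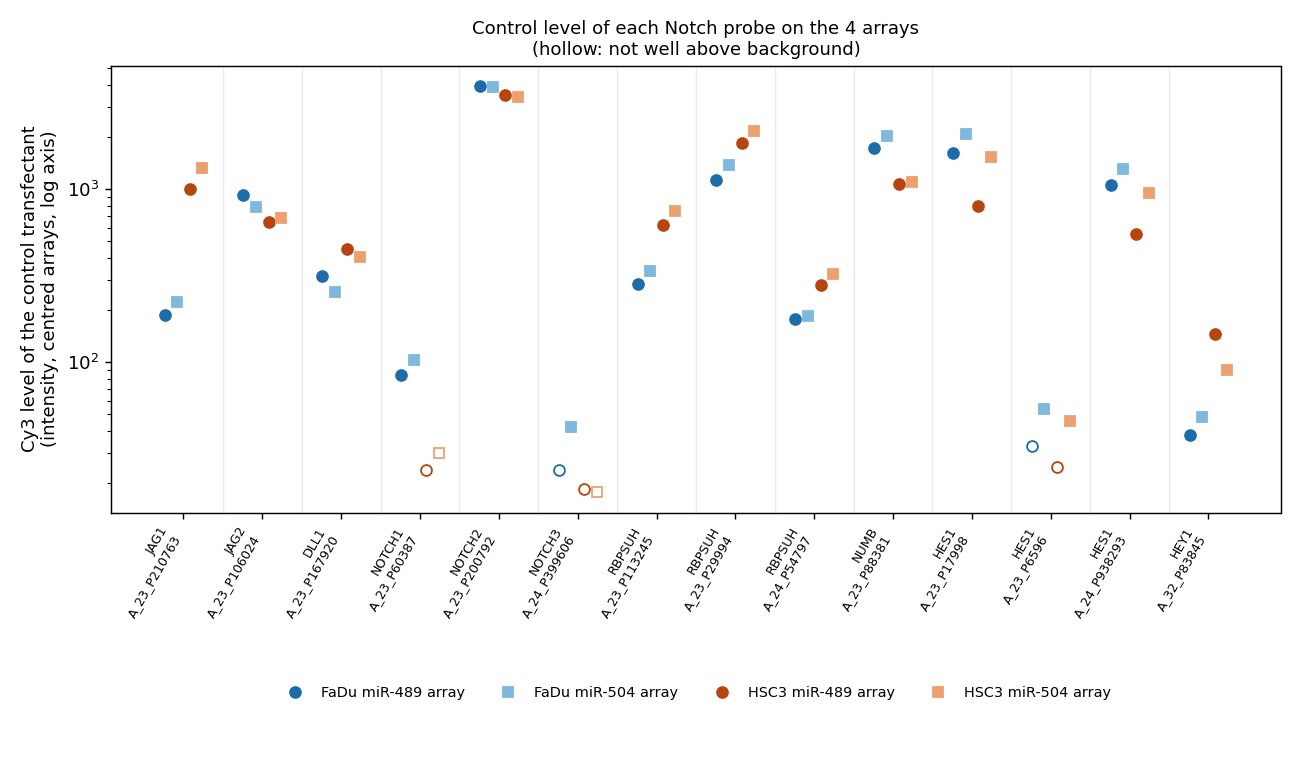
Cy3 level of the control transfectant for each of the 14 probes (x axis), as centred intensity on a log axis, with 1 point per array, blue for FaDu and orange for HSC3, and hollow points where the signal was not well above background. JAG1, DLL1, RBPSUH and HEY1 lie higher on both HSC3 arrays. NUMB, NOTCH1, NOTCH2, NOTCH3, JAG2 and the bright HES1 probes lie higher on both FaDu arrays. Of these, NUMB alone passed the main test, and NOTCH1 and NOTCH3 were not in it. How many of all probes separate in this way was not counted.

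JAG1 (chr20:10637684-10673999 of GRCh38.p14), the ligand Jagged1, showed the widest gap between the lines among the 11 tested Notch probes, and over all 20914 probes it ranked 448 by p-value. The control level of JAG1 was 188 and 222 on the FaDu miR-489 and miR-504 arrays and 1005 and 1334 on the HSC3 arrays in the same order. The spread within a line was small beside the gap. JAG1 was 5.66-fold higher in HSC3 (log2 difference −2.50, standard error 0.19, limma adjusted p = 0.000182, 2 arrays per line), and this call held under every alternative.

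DLL1 (chr6:170282206-170291078), a Delta-type ligand, had control levels of 316 and 255 on the FaDu arrays and 449 and 406 on the HSC3 arrays. It was higher in HSC3 (log2 difference −0.59, standard error 0.17, limma adjusted p = 0.0260). The DLL1 call was lost with the scanner's own processed signal (limma adjusted p = 0.0580), without a filter on dim probes (0.137), without the FaDu miR-504 array (0.181) and without the HSC3 miR-489 array (0.0714). JAG2 (chr14:105140995-105168776), the second Jagged ligand, had levels of 929 and 790 in FaDu and 650 and 680 in HSC3. The JAG2 difference of 0.36 on the log2 scale (95% interval −0.0069 to 0.74) did not pass the test (limma adjusted p = 0.0942), but it did with the scanner's own processed signal (0.49, limma adjusted p = 0.0347).

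NOTCH1 (chr9:136494433-136546048) was measured by 1 probe printed in 10 spots per array. All 10 spots were well above background in Cy3 on each FaDu array, against 0 spots on the HSC3 miR-489 array and 1 spot on the HSC3 miR-504 array. The spots ranged from 70.8 to 126 and from 64.9 to 147 on the FaDu arrays, with medians of 85.6 and 102. On the HSC3 arrays they ranged from 19.1 to 35.2 and from 20.3 to 42.2, with medians of 24.1 and 31.9. The spots of the 2 lines therefore did not overlap, although spots on an array share its RNA and are not replicates of a line. These ranges and medians cover all 10 spots, including outliers left out of the probe level. Among the outliers were the FaDu miR-489 spot at 126 and the HSC3 miR-504 spot at 42.2, the latter being the 1 above background there. The HSC3 signal was not well above background, so the size of the gap is uncertain. As measured, the control level of NOTCH1 was 3.48-fold higher in FaDu than in HSC3 on the centred levels. The measured fold was 4.72 after loess and Aquantile normalisation. NOTCH1 was not among the probes of the main test. Without a filter on dim probes its log2 difference was 1.80 (limma adjusted p = 0.0201), a fit that uses the dim HSC3 signals.

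**Figure D2:**
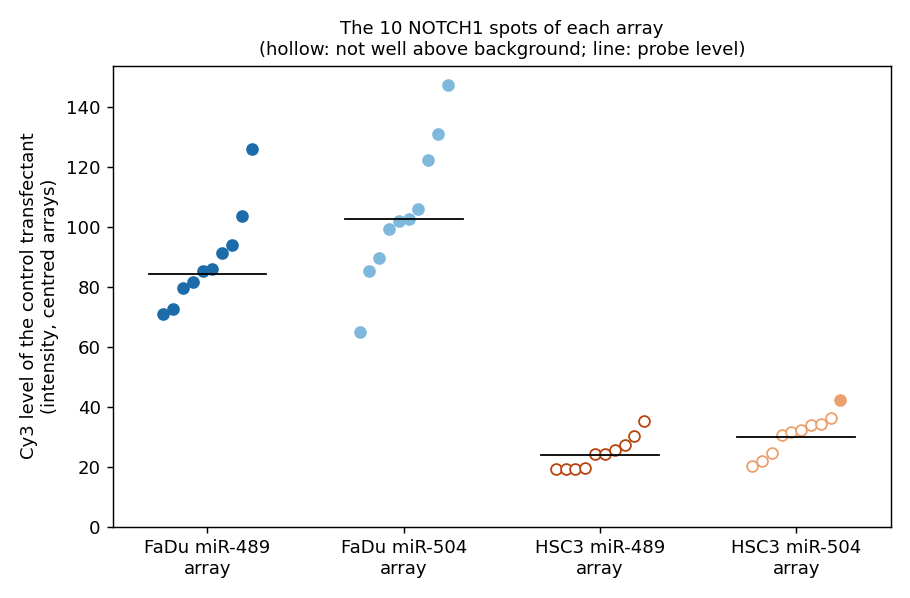
Cy3 level (centred intensity, y axis) of the 10 spots of the NOTCH1 probe on each array (x axis), with filled points well above background, hollow points not, and a line at the level of the probe. The lowest FaDu spot, at 64.9, lies above the highest HSC3 spot, at 42.2, which was an outlier left out of the probe level.

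NOTCH2 (chr1:119911553-120069662) gave levels of 3953 and 3901 in FaDu and 3515 and 3414 in HSC3. The difference of 0.18 (95% interval −0.16 to 0.52) did not pass the test (limma adjusted p = 0.330). NOTCH3 (chr19:15159038-15200995) was well above background on the FaDu miR-504 array alone, with a level of 42.0 there against 23.8, 18.6 and 17.7 on the other arrays. NOTCH3 was not in the main test, and without a filter on dim probes it did not pass (limma adjusted p = 0.185). NOTCH2 has near-identical relatives in the genome, and the specificity of its probe was not tested.

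RBPSUH (RBPJ, chr4:26105449-26435131), which carries the signal to DNA, was higher in HSC3 by all 3 of its probes. The probe A_23_P113245 gave 281 and 337 in FaDu and 623 and 753 in HSC3, a 2.22-fold difference (log2 −1.15, standard error 0.18, limma adjusted p = 0.00204). The probe A_24_P54797 gave 178 and 185 in FaDu and 281 and 323 in HSC3, a 1.66-fold difference (limma adjusted p = 0.00748). The probe A_23_P29994 gave 1135 and 1379 in FaDu and 1842 and 2170 in HSC3, a 1.60-fold difference (limma adjusted p = 0.0165). The call of A_23_P29994 was lost without the FaDu miR-489 array (limma adjusted p = 0.115), without the HSC3 miR-504 array (0.0533) and without a filter on dim probes (0.109), and in the last setting that of A_24_P54797 was lost too (0.0702). RBPJ has pseudogenes, and which copies the probes detect was not tested.

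NUMB (chr14:73275216-73458546), the Notch inhibitor, was the 1 probe that passed the test with a higher level in FaDu. Its levels were 1729 and 2024 in FaDu and 1069 and 1107 in HSC3. NUMB was 1.72-fold higher in FaDu (log2 difference 0.78, standard error 0.16, limma adjusted p = 0.00604), but the call was lost without the FaDu miR-504 array (limma adjusted p = 0.0502) and without a filter on dim probes (0.0636).

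HES1 (chr3:194136148-194138732), whose promoter window is printed above, had 2 bright probes and 1 dim probe. The probe A_23_P17998 gave control levels of 1613 and 2078 in FaDu and 799 and 1532 in HSC3. The probe A_24_P938293 gave 1060 and 1313 in FaDu and 553 and 948 in HSC3. The 2 HSC3 control channels stood 1.92-fold and 1.71-fold apart on these probes. Of all probes tested, 7.65% differed by more than 1.5-fold between the HSC3 control channels and 3.97% between the FaDu control channels. The differences between the lines, 0.73 and 0.70 on the log2 scale, did not pass the test (limma adjusted p = 0.0889 and 0.0648). Without the HSC3 miR-504 array they did (1.196 and 1.09, limma adjusted p = 0.00406 and 0.00481), whereas without the HSC3 miR-489 array the differences were 0.26 and 0.32 (limma adjusted p = 0.346 and 0.232). The result for HES1 thus depended on which HSC3 array was kept, and in these fits the lone HSC3 array is assumed to vary like the FaDu arrays. The probe A_24_P938293 also passed with normexp (limma adjusted p = 0.0492) and without background subtraction (0.0407). The third probe, A_23_P6596, was well above background on the 2 miR-504 arrays alone, at 54.0 and 45.6, and was not in the main test. Without a filter on dim probes its difference was 0.33 (limma adjusted p = 0.641).

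HEY1 was measured by 1 probe of low signal. Its control levels were 37.8 and 48.0 in FaDu and 145 and 90.3 in HSC3. HEY1 was 2.69-fold higher in HSC3 (log2 difference −1.42, standard error 0.25, limma adjusted p = 0.00360). At this intensity the size depended on the background correction, and over the alternatives the difference ran from −1.86 to −0.68. The call was lost without a filter on dim probes (limma adjusted p = 0.0533).

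The effect of a miRNA was measured on each array as the log2 ratio of Cy5 over Cy3, with the median ratio of all probes above background in Cy5 and Cy3 set to 0. A negative ratio means less RNA in the miRNA transfectant than in its control. A single array has no replicate check, and a dye effect of a probe remains in its ratio. Between spots of 1 probe on an array, the median standard deviation of the log2 ratio was 0.16 to 0.19 for intensities under 100, 0.063 to 0.073 for 100 to 1000, and 0.038 to 0.045 over 1000. PTPN11, the target gene of the study, had ratios of −3.25, −1.29, −3.22 and −1.04.

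Among the Notch probes, 49 ratios had Cy3 well above background, and 3 of these showed a fall of 2-fold or more, against 6.46% of all such ratios on the 4 arrays. Another count, of the 51 ratios with Cy5 well above background, gave 1 at least 2-fold higher than control, against 2.47% of all. All 3 low ratios belonged to HEY1 and the high ratio to DLL1.

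**Figure D3:**
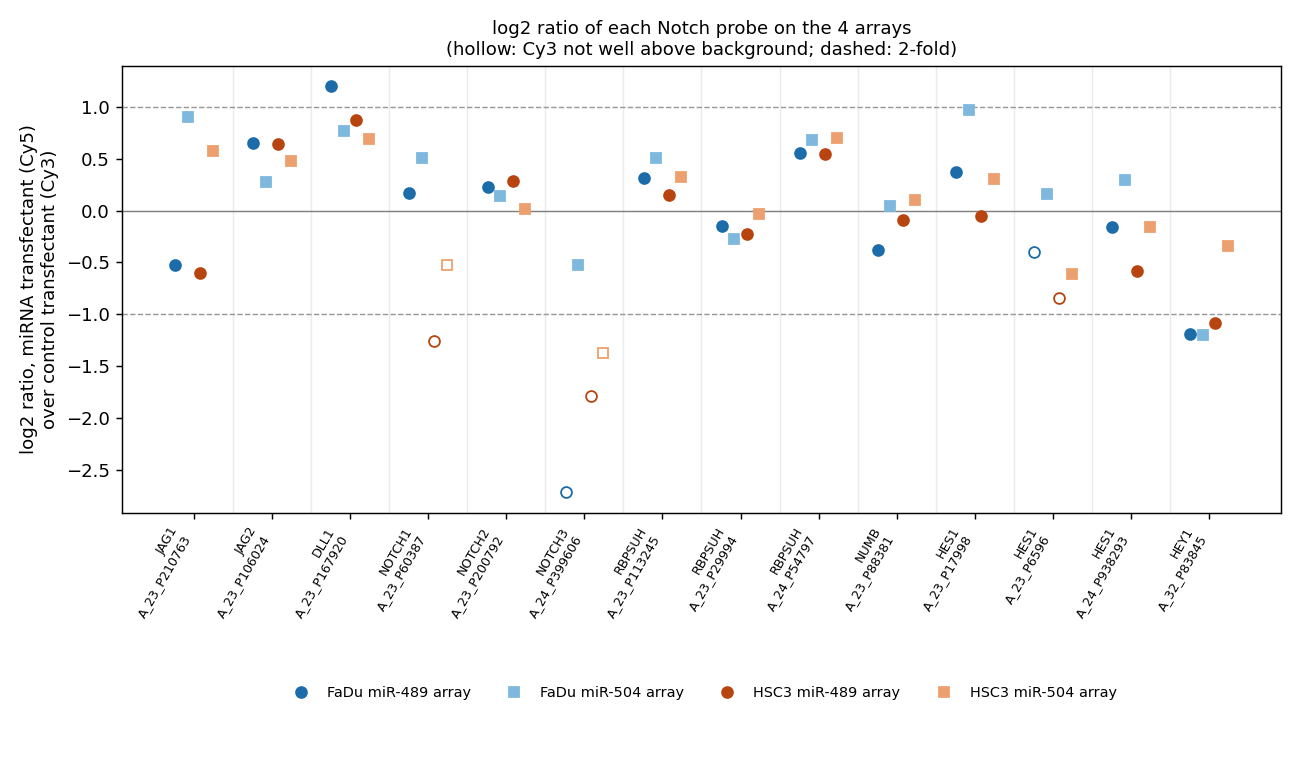
log2 ratio of miRNA transfectant over control transfectant (y axis) for each of the 14 probes (x axis) on the 4 arrays, with circles for miR-489, squares for miR-504, hollow points where Cy3 was not well above background and dashed lines at 2-fold. The miR-489 points of JAG1 lie at −0.52 and −0.61 and its miR-504 points at 0.90 and 0.57, and the 3 HEY1 points under the dashed line are the low ratios counted in the text.

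The ratios were then compared between the miRNAs, with the lines as the 2 replicates of each. In this difference a dye effect common to the arrays cancels. Of the 20914 probes tested, 0.76% were lower after miR-489 than after miR-504 and 0.306% were higher (limma, adjusted p under 0.05). Of the 11 Notch probes 1, JAG1, was lower after miR-489, 0 were higher and 10 did not pass, and JAG1 was also the 1 Notch probe with an unadjusted p under 0.05. The median difference was −0.18 over the 11 probes and 0.024 over all probes tested. With the cell line as a block, 372 probes were lower and 186 higher in place of 159 and 64, and the JAG1 call held (limma adjusted p = 0.0221).

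JAG1 was lower than control on both miR-489 arrays and higher than control on both miR-504 arrays. Its log2 ratios were −0.52 in FaDu and −0.61 in HSC3 after miR-489, and 0.90 in FaDu and 0.57 in HSC3 after miR-504. Expressed on the scale of the control, the level of JAG1 was 131 after miR-489 against 188 in the control on the same FaDu array, and 415 after miR-504 against 222. In HSC3 it was 661 after miR-489 against 1005, and 1985 after miR-504 against 1334. The ratio after miR-489 was 2.47-fold under that after miR-504 (log2 difference −1.30, standard error 0.15, 95% interval −1.68 to −0.92, limma adjusted p = 0.0399). The difference was −1.42 within FaDu and −1.18 within HSC3. By p-value, JAG1 ranked 135 of 20914 probes. Of the changes against control themselves, 0 of the 4 reached 2-fold.

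The JAG1 call rested on all 4 arrays, as did every call in this comparison, and on 1 spot per array. Without a filter on dim probes no probe of the array passed, JAG1 included (limma adjusted p = 0.464). Without any 1 array the difference for JAG1 ran from −1.47 to −1.14. In these fits the miRNA left with 1 array is assumed to vary like the other. The control level of JAG1 was also lower on the miR-489 array of each line, and the part of this in the ratios was not tested.

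**Figure D4:**
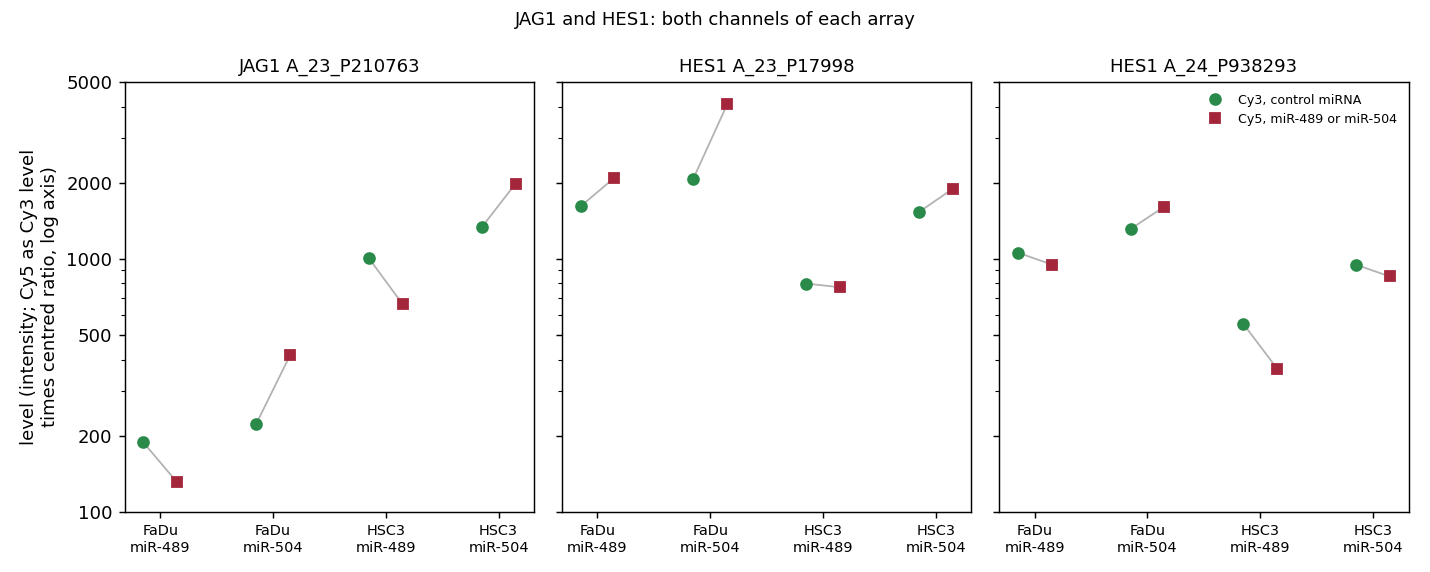
Levels of JAG1 and of the 2 bright HES1 probes on each array (x axis), with green circles for the control transfectant (Cy3) and red squares for the miRNA transfectant (Cy5, as the Cy3 level times the centred ratio), on a log intensity axis. JAG1 falls from 188 to 131 and from 1005 to 661 on the miR-489 arrays and rises from 222 to 415 and from 1334 to 1985 on the miR-504 arrays, and the HES1 control level on the HSC3 miR-489 array lies under those on the other arrays.

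HES1 had lower ratios after miR-489 than after miR-504 in either line, by both bright probes, but the difference did not pass the test. For A_23_P17998 the log2 ratios were 0.38 and 0.98 in FaDu and −0.05 and 0.31 in HSC3. For A_24_P938293 they were −0.16 and 0.29 in FaDu and −0.59 and −0.15 in HSC3. The latter probe read lower than the former on each array, so that the direction against control was not settled after miR-489 in FaDu or after miR-504 in HSC3. After miR-489 in HSC3 the ratio of A_23_P17998 ran from −0.23 to 0.063 over the alternatives, so its sign was not settled either. The differences, miR-489 minus miR-504, were −0.48 (95% interval −1.16 to 0.20) and −0.44 (−1.001 to 0.11), with limma adjusted p of 0.413 and 0.360. The control level of HES1 was itself lower on the miR-489 array of each line, as given above, and the part of this in the ratios was not tested.

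HEY1 had log2 ratios of −1.19 and −1.20 in FaDu and −1.08 and −0.34 in HSC3. Its level was lower than control on all 4 arrays, but the size depended on the processing, and its control intensity in FaDu was under 50. With normexp the ratios were −0.52, −0.60, −0.77 and −0.24, and with loess they were −0.42, −0.66, −0.97 and −0.20. None of these 8 values reached 2-fold, and the same held without background subtraction, with normexp and loess together, and with the scanner's own log ratio. Between the miRNAs HEY1 differed by −0.36 (95% interval −1.10 to 0.37, limma adjusted p = 0.570).

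DLL1 was above control on all 4 arrays, with log2 ratios of 1.20 and 0.77 in FaDu and 0.88 and 0.70 in HSC3. The value past 2-fold, on the FaDu miR-489 array, fell to 0.98 with normexp and loess together and to 0.99 with total-signal scaling. DLL1 and JAG2 moved the other way from JAG1 between the miRNAs, by 0.30 (95% interval −0.073 to 0.68) and 0.27 (−0.041 to 0.58), and neither passed the test (limma adjusted p = 0.354 and 0.324). The JAG2 ratios were 0.66 and 0.28 in FaDu and 0.65 and 0.48 in HSC3. For DLL1, JAG2 and HEY1, each of the same sign on all 4 arrays, a dye effect common to the arrays was not tested.

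Of the receptors, NOTCH2 had ratios between 0.017 and 0.28 on the 4 arrays and differed by 0.18 between the miRNAs (95% interval −0.11 to 0.47, limma adjusted p = 0.471). The FaDu ratios of NOTCH1 were 0.17 after miR-489 and 0.51 after miR-504. Its spots on these arrays ranged from −0.12 to 0.47 and from 0.23 to 0.78, so they overlapped. No ratio is given for NOTCH1 in HSC3, where Cy3 was not well above background.

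The ratios of NUMB ran from −0.38 to 0.10, and its difference between the miRNAs was −0.31 (95% interval −0.66 to 0.042, limma adjusted p = 0.319). The RBPSUH probes disagreed in sign. A_23_P113245 and A_24_P54797 were above control on all 4 arrays, from 0.15 to 0.50 and from 0.55 to 0.70, whereas A_23_P29994 was below control on all 4, from −0.28 to −0.036. Their differences between the miRNAs were −0.18, −0.14 and −0.030, with limma adjusted p from 0.528 to 0.936.

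**Figure D5:**
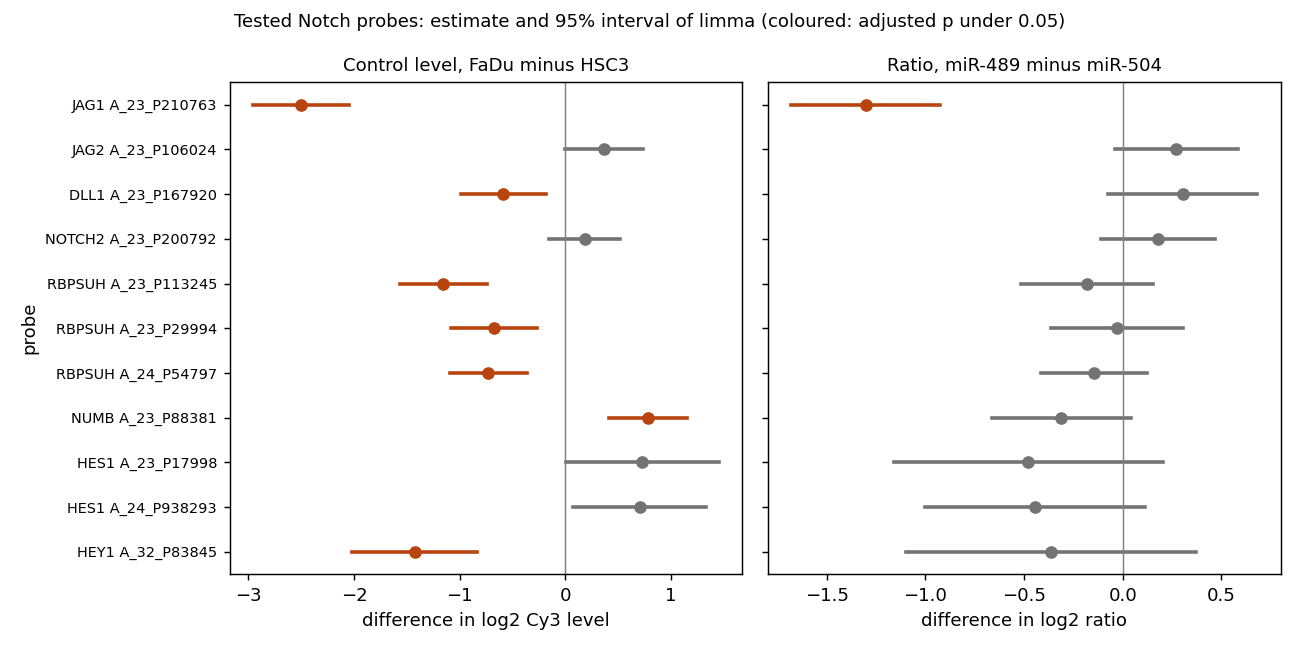
Difference of the control level, FaDu minus HSC3 (left), and of the ratio, miR-489 minus miR-504 (right), both on the log2 scale, for the 11 tested Notch probes, with the limma estimate as a point and its 95% interval as a line, coloured where the adjusted p was under 0.05. On the left 7 probes are coloured, and on the right JAG1 is the coloured probe, at −1.30.

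Whether the ratio differed between the lines was tested with the 2 miRNAs as replicates of each line. None of the 11 Notch probes passed, and 0 of all 20914 probes did, with 668 at an unadjusted p under 0.05 (limma). The intervals were wide: for JAG1 the difference, FaDu minus HSC3, was 0.20 (95% interval −1.45 to 1.86), and for the HES1 probes it was 0.55 (−0.15 to 1.24) and 0.44 (−0.20 to 1.08). This fit had no term for the miRNA, so a difference between the miRNAs, as for JAG1, added to the spread and widened the interval. The lack of calls therefore does not show that the lines responded alike. With the miRNA as a block the HES1 probes did not pass either.

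Other genes of the pathway were taken from a list of 58 by role, of which 55 were found on the array and 39 could be tested, each by its brightest probe. Of these 39, 10 were higher in FaDu and 11 higher in HSC3, against 28.9% and 19.9% of all probes tested, and their median difference was 0.062. Those higher in HSC3 fell to 7 without the FaDu miR-489 array or without the HSC3 miR-489 array, and the counts were 4 and 3 without a filter on dim probes. The 5 smallest p-values belonged to DTX2, MFNG, EP300, RFNG and TLE1. DTX2, a Deltex protein that regulates the receptor, gave 35.6 and 38.7 in FaDu and 151 and 113 in HSC3 (log2 difference −1.81, limma adjusted p = 0.000455). This dim probe kept its call in every alternative, over which its difference ran from −2.07 to −0.80. TLE1, a corepressor that HES proteins recruit, was also higher in HSC3 (−1.36, limma adjusted p = 0.000926).

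The Fringe enzymes add sugars to the receptor that alter its response to JAG and DLL ligands. MFNG had levels of 3140 and 3703 in FaDu and 1096 and 1275 in HSC3 (log2 difference 1.53, limma adjusted p = 0.000583), and RFNG differed in the same direction (1.24, limma adjusted p = 0.00126). EP300, a histone acetyltransferase that acts as coactivator, was higher in FaDu as well (1.46, limma adjusted p = 0.000610, and 0.89 to 1.68 over the alternatives). By role, and beside the same shares over all probes, the receptor-modifying group held 2 genes higher in FaDu and 1 higher in HSC3 of 4 tested, the coactivators 3 and 0 of 5, and the corepressors 3 and 3 of 10. Gamma-secretase held 0 and 2 of 6, the receptor proteases 1 and 1 of 3, ligand endocytosis 0 and 2 of 3, and receptor endocytosis and turnover 1 and 2 of 5. The 1 further ligand and the 2 further HES and HEY genes tested did not pass.

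Between the miRNAs 0 of these 39 genes passed in each direction, with a median difference of 0.0030. LFNG and MFNG came closest (limma adjusted p = 0.0801 and 0.0760). With the cell line as a block LFNG and TLE4 were lower after miR-489 (limma adjusted p = 0.0401 and 0.0389), and with normexp LFNG and MFNG were (0.0439 and 0.0304). Against control, 15 of 170 ratios were at least 2-fold lower and 6 of 176 at least 2-fold higher, against 6.46% and 2.47% over all probes. LFNG was past 2-fold in both lines after miR-489, at −1.02 in FaDu and −1.25 in HSC3, against −0.21 and −0.42 after miR-504, and its FaDu value was −0.83 in the alternative that moved it most. FBXW7, the ubiquitin ligase component that marks the receptor for breakdown, was at −1.45 in FaDu and −1.10 in HSC3 after miR-489 and at −1.13 and −0.94 after miR-504. Its difference between the miRNAs was −0.24 (limma adjusted p = 0.493), and its HSC3 value after miR-489 was −0.93 in the alternative that moved it most. TLE4 met the same size in both lines after miR-489, but its Cy5 was not well above background on the FaDu array, and no value is given for it there.

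HES7 and MIB2 were past 2-fold on all 4 arrays. HES7, a HES family repressor, had ratios of −1.47 and −1.43 after miR-489 and −1.61 and −1.46 after miR-504, with control levels of 58825 to 65634. These levels were nearly equal in the lines (log2 difference −0.0059). Whether the probe reads HES7 RNA alone, and whether its ratio is reliable at so high an intensity, was not tested. MIB2, a ubiquitin ligase that acts on ligands, had ratios of 1.19 and 1.45 after miR-489 and 1.55 and 1.65 after miR-504, the first of which was 0.96 in the alternative that moved it most. With the dyes not swapped, a dye effect common to the arrays and an effect shared by both miRNAs cannot be told apart for these genes. The same limit holds for every gene with ratios of the same sign on all 4 arrays, DLL1, HEY1, JAG2 and FBXW7 among them.

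The cell type of the lines was checked with marker genes, which were not chosen to tell FaDu from HSC3. All 7 squamous epithelium markers found on the array were well above background on all 4 arrays, with a summed Cy3 level of 49319 to 65317 in FaDu and 68713 to 79139 in HSC3. Of the markers of other cells, 0 of 3 for endothelium, 1 of 5 for fibroblasts (THY1) and 1 of 4 for leukocytes (CD14) were well above background on all arrays. The summed fibroblast list was 923 to 973 in FaDu and 1187 to 1263 in HSC3, the leukocyte list 154 to 218 and 94.1 to 122, and the part of these levels in the line differences was not tested. The brightest probes, KRT5 in the squamous sum and THY1 in the fibroblast sum, weighed most. Over the arrays, 58.2% to 59.2% of spots were well above background in Cy3 and 61.2% to 62.6% in Cy5.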

How the data were processed

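RNA of miR-489 or miR-504 transfectants (Cy5) and of control transfectants (Cy3) of the same line was hybridised to 2-colour Agilent arrays, and dyes, lines and miRNAs were taken from the labels. The authors deposited unnormalised spot and background intensity values from Feature Extraction 9.5.3.1. The deposited log10 ratio per spot, which that software had dye-normalised, was identical to the deposited value table (largest difference 0). The methods name log2 ratios of background-subtracted medians with a global normalisation, which the main values follow.

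Background was subtracted from median intensities with a floor of 1, and 118 to 137 outlier spots per array were left out, 3 of them in the NOTCH1 probe over the 4 arrays. No spot was saturated (0). Spots of a probe were averaged. Each array's log2 Cy3 level was centred on a common median, and log2 ratios on the median of probes above background in both channels (removed: 0.58, 0.65, 0.58 and 0.45). limma was fitted to the 20914 probes whose Cy3 was above background on every array (2 residual degrees of freedom), with Benjamini-Hochberg adjustment at 0.05. The NOTCH1 fold sets the mean of the FaDu arrays against a value for each HSC3 array. That value is the higher of the measured signal and the dimmest signal counted as above background. The measured signal was the higher, so the fold is the measured one and not a bound. It was taken on the centred levels and after loess and Aquantile, and is open to dye bias. Scripts were tested on simulated data.

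Every probe of the 10 genes was named. Of the pathway list, the 5 smallest p-values of the level test and, per miRNA, genes past 2-fold in the same direction in both lines were named, and MFNG in the comparison of the miRNAs was named after its value was seen. The members, lists and alternatives were chosen with earlier results of these data known. DTX4, HES3, NRARP and KRT6A were not found under these names. The build of the file coordinates is not given in the sources used here, so gene positions are those of RefSeq (GRCh38.p14).

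Alternatives were normexp (offset 50), no background subtraction, mean signals, loess (span 0.3), quantile, 75th percentile, Aquantile and total-signal scaling, the deposited processed signals and ratios, other filters on dim probes, a 1.5-fold threshold, blocks, and leaving out each array. Tests ran in limma (version 3.58.1) under R 4.3.3, and figures were drawn with matplotlib (3.10.9) under Python 3.11.15.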

Additional observations from a re-analysis of the deposited data

How the results depend on the processing

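The 7 Notch probes that passed the level test kept their direction under every alternative run, and JAG1 and the RBPSUH probe A_23_P113245 kept their call in all. Without a filter on dim probes 3408 probes were higher in FaDu and 2624 higher in HSC3. Between the miRNAs, the probes higher and lower after miR-489 numbered 284 and 379 (normexp), 195 and 303 (no background subtraction), 295 and 487 (normexp followed by loess), 136 and 254 (deposited log ratio), and 186 and 372 with the cell line as a block, and 111 were higher with loess alone. Without a filter on dim probes 0 were higher and 0 lower (limma, 3236 at an unadjusted p under 0.05). Leaving out any 1 array also left 0 and 0 (range 0 to 0), with 2064 to 3704 at an unadjusted p under 0.05. JAG1 lost its call in these 5 settings and kept it in the other 9. The difference between the miRNAs turned sign when an array was left out for the RBPSUH probe A_23_P29994 (from −0.15 to 0.091, and 0.0066 without the HSC3 miR-489 array) and for HEY1 (from −0.79 to 0.069). The cause of these changes was not tested.

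Of the ratios of all probes, 1789 were at least 2-fold lower with normexp, 1915 without background subtraction, 2416 with normexp and loess and 9545 with total-signal scaling, in place of 6090. At least 2-fold higher were 942 with normexp and loess, 1193 with total-signal scaling and 4456 with the deposited log ratio, in place of 2476. At 1.5-fold, 15905 were lower and 11504 higher. Of the Notch ratios, 0 were 2-fold lower in 5 settings (each of normexp, loess, their combination, unsubtracted signals and the deposited log ratio), and 6 were lower at 1.5-fold. Those 2-fold higher numbered 2 with normexp, 2 without background subtraction, 0 with normexp and loess, 0 with total-signal scaling, and 10 at 1.5-fold. No paired analysis by replicate number was possible because the labels give none. Low signal limits NOTCH1 in HSC3, NOTCH3, HEY1 in FaDu and the third HES1 probe.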
